A study of Mus musculus with 24 samples.

Results

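The 9 genes described here are members of the interleukin-6 (IL-6) family: the secreted ligands Il6, Lif, Osm and Il11, the receptor chains Il6ra, Il6st, Osmr and Lifr, and the transcription factor Stat3. They were chosen by name from the symbols in the count tables, and all 9 were found among 52976 symbols. In the files' GRCm38 coordinates Il6 lies at chr5:30013114-30019981, Lif at chr11:4257557-4272514, Osm at chr11:4236420-4241026 and Stat3 at chr11:100885098-100939479. Il11 lies at chr7:4772373-4782859, Il6ra at chr3:89864059-89913196, Il6st at chr13:112464070-112510086, Osmr at chr15:6813577-6874969 and Lifr at chr15:7090614-7197489. Messenger RNA had been sequenced from wound tissue of diabetic mice and from RAW264.7, an established mouse macrophage line. Hydrogel wounds had received Fmoc-KYF-AgNCs-3S1C-Hyd2, a peptide gel that carries silver nanoclusters and a hydrogenase for release of hydrogen under light, and control wounds are labelled diabetic control. Each arm had 3 libraries at day 1, 3 at day 7 and 3 at day 14. Hydrogel cells (3 libraries) carry the gel's name with the suffixes Hyd3, Hyd4 and Hyd5, and control cells (3 libraries) are labelled LPS, lipopolysaccharide, a bacterial component that activates macrophages. The labels do not say whether these suffixes name the gel of the wounds or other gels; by their titles the 3 libraries were treated as 1 group, which assumes that they do not differ. The series design speaks of LPS-induced macrophages in both arms, while the labels of the hydrogel cells do not name LPS, so it is not settled whether the cell groups also differ in LPS. Titles call hydrogel and control wounds TEOA and Dia, and hydrogel and control cells H2 and Without_H2. Strain, age and the diabetes model are not given in the sources used here.

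IL-6 family cytokines share the receptor chain gp130, encoded by Il6st, and each adds a chain of its own: Il6ra binds IL-6, Lifr pairs with gp130 for leukaemia inhibitory factor (Lif), and Osmr pairs with it for oncostatin M (Osm). Il11 signals through gp130 and a separate chain, Il11ra1. Receptor assembly activates JAK kinases, which phosphorylate STAT3, and STAT3 then enters the nucleus and induces genes that include its own inhibitor Socs3. In skin wounds the pathway is known for acute-phase and neutrophil responses and for keratinocyte migration.

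The start-site regions of the members are given by RefSeq on GRCm38.p6 as 250 bases before and 50 bases after each annotated start. The table held 10 such promoters for 8 of the 9 members (Osm is named only). Those of Il6, Lif, Il11 and Osmr are shown because they hold the only matches among the members to 4 motifs searched on both strands, and because Il6, Lif and Il11 are ligands that were lower together in hydrogel cells. Capitals mark TGANTCA (AP-1), TTGNGCAA (C/EBP) and the NF-kB letters GGGA, any base, TTTCC, where N is any base. No 2 matches overlap.
Il6, chr5:30012864-30013163, plus strand: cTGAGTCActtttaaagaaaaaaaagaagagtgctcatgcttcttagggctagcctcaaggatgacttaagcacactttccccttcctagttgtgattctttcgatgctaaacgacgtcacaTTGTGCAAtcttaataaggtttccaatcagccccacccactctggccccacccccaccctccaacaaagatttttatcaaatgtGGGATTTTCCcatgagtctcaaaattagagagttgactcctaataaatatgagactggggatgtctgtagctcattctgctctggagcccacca
Lif, chr11:4257318-4257617, plus strand: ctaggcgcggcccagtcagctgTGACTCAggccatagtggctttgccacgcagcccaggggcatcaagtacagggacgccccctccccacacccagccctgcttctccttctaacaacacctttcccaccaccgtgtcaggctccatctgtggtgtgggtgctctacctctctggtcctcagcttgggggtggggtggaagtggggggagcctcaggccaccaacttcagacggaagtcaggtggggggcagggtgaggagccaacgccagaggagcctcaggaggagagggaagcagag
Il11, second of 2 promoters, chr7:4778092-4778391, minus strand: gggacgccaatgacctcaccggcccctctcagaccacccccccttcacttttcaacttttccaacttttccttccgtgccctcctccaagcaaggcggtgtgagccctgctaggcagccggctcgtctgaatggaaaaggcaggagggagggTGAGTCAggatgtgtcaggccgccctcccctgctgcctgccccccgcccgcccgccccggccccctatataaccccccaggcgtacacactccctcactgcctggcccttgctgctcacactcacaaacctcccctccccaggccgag
Osmr, chr15:6874264-6874563, minus strand: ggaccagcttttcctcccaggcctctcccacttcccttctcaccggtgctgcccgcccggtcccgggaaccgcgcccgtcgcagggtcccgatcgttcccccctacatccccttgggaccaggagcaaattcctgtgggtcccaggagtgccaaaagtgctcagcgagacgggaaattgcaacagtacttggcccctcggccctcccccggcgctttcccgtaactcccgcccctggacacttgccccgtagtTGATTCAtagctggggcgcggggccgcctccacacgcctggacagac
Il6 holds an AP-1 match 249 bases, a C/EBP match 128 bases and an NF-kB match 44 bases before its start. Lif and Il11 hold an AP-1 match 228 and 98 bases before theirs, and Osmr holds one that begins 3 bases after its start. Of all 32851 RefSeq promoters of this length, 7.81% hold the AP-1 letters, 2.94% the C/EBP letters and 0.411% the NF-kB letters. The letters TTCNNNGAA, a STAT site, are in 8.3% of promoters and in none of these members' windows. For comparison they are in that of Socs3, whose stretch around the match (chr11:117969487-117969545, minus strand) is shown.
Socs3: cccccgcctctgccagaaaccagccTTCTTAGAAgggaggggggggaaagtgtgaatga
These matches describe letters only; binding was not measured.

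Depth ran between 12428907 and 27062593 counted read pairs in wound libraries and between 17932839 and 23955760 in cell libraries. No label ties replicates to separate animals or separate cultures; p-values therefore reflect library-to-library spread that could be technical. Its size varied by group, given as 1 coefficient of variation per group from the spread that edgeR pools over genes, without counting noise. It was 43.8% in hydrogel and 55.3% in control wounds on day 1, 11.1% and 4.68% on day 7, and 15.4% and 52.4% on day 14. In cells it was 10.3% with hydrogel and 1.76% in controls. Control wounds at day 7 and control cells differed between replicates little more than by counting noise. Their median chi-square per gene was 0.623 to 0.682 and 0.508 to 0.611, where counting noise alone gives 0.455. In the other groups it ran from 1.19 to 26.2. Whether these are repeat libraries of the same sample is not stated. Wounds held markers of skin and of skeletal muscle (8 muscle genes together at 7033 to 229800 CPM, counts relative to library size scaled by TMM). Control day 1 replicate 1 stood apart with the lowest muscle sum, where its group's remaining libraries held 135500 and 229800 CPM. Control day 14 replicate 1 had a keratinocyte sum of 641.5 CPM, where its group's remaining libraries held 4253 and 5795 CPM. RAW264.7 libraries held macrophage markers at 4448 to 4780 CPM in hydrogel and 2404 to 2481 CPM in control cells, and fibroblast markers at no more than 0.417 CPM. In bulk RNA, fewer cells of a type and less RNA per cell cannot be told apart.

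In a fit of all 18 wound libraries with the edgeR quasi-likelihood test, the threshold was an adjusted p of 0.05, by the Benjamini-Hochberg method over all 17592 genes tested. At day 1, 1 of 9 members passed (Il6st, higher), where 7.55% of all tested genes passed, 4.53% higher and 3.02% lower. At day 7, 0 of 9 passed with edgeR, where 21.6% of all genes passed, 9.86% higher and 11.7% lower. At day 7 edgeR gave 1 member an unadjusted p below 0.05 (Lifr). DESeq2 also called 0 members, where it called 4992 of 17592 genes, and limma-voom called 5, where it called 12321 of 17592. A fit of the day 7 groups alone called 3 of 6 members tested, where it called 11122 of 15845 genes. At day 14, 4 of 9 fell (Il6, Il6st, Osmr, Lifr) and 0 rose, where 16.1% of all genes passed, 5.83% higher and 10.3% lower. In cells all 7 members that could be tested passed, 5 lower and 2 higher, where 72.5% of 12972 genes passed, 34.7% higher and 37.8% lower. The median log2 fold change of the tested members was 0.71 on day 1 and 0.39 on day 7, against 0.04 and 0.01 over all genes tested. It was -1.53 on day 14 and -0.74 in cells, against 0.03 and -0.04 over all genes tested.

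**Figure D1:**
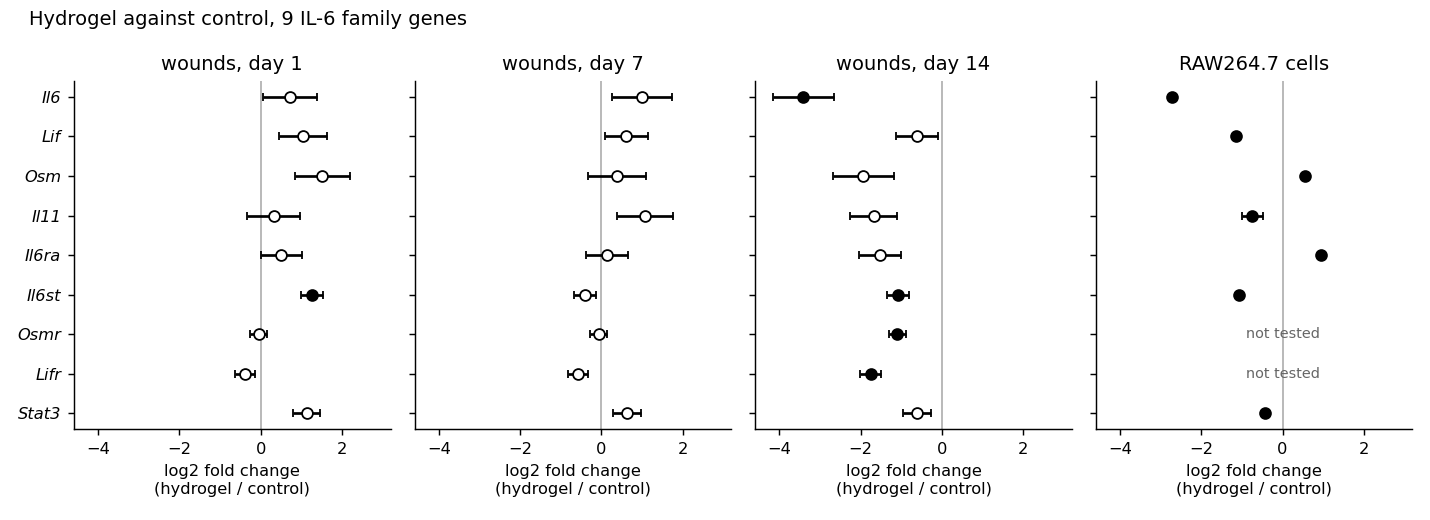
Log2 fold change of hydrogel over control for the 9 genes at wound days 1, 7 and 14 and in RAW264.7 cells, with bars of 1 standard error from edgeR; filled points passed at an adjusted p below 0.05 and open points did not. At day 14 all 9 points lie left of zero, 4 of them filled, and in cells Osm and Il6ra lie right of zero.

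The 4 ligands were scarce in wounds. No ligand exceeded 68 read pairs in any wound library, and the lowest count was 1, so their wound values are imprecise. Set per length as TPM, a level relative to the library that also corrects for transcript length and so lets genes be compared, the ligands together were led on average by Osm in hydrogel wounds at day 1, with 44.0% to 60.5% of the ligand TPM, and by Il11 at day 14, with 33.5% to 56.8% in hydrogel and 35.1% to 55.7% in control wounds. Control wounds at day 1 had no steady leader, with Il11 at 11.03% to 51.6% and Osm at 16.9% to 46.2%.

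Il6, the cytokine that gives the family its name, stood at 2.66, 1.16 and 1.09 CPM in hydrogel wounds at day 1, against 2.04, 0.379 and 0.507 CPM in controls. At day 7 it was at 0.574, 0.336 and 1.54 CPM in hydrogel wounds, against 0.446, 0.474 and 0.279 CPM in controls. At both days the groups overlapped, and the log2 fold changes of 0.71 ± 0.67 and 1.01 ± 0.75 (SE) did not pass (edgeR adjusted p = 0.531 and 0.344). The day 1 value was 1.83 without control replicate 1 and 0.20 without hydrogel replicate 1, and the day 7 value was 0.17 without hydrogel replicate 3. At day 14 Il6 was at 0.118, 0.187 and 0.138 CPM in hydrogel wounds, from 3, 6 and 4 read pairs, against 0.928, 2.91 and 1.10 CPM in controls, from 16, 68 and 24 pairs. Every hydrogel library lay below every control library. The log2 fold change was -3.42 ± 0.75 (edgeR adjusted p = 0.00799), an estimated 10.7-fold lower level, and it passed under all 15 alternatives (adjusted p 1.06e-05 to 0.04997). Without control replicate 2, its highest library, the value was -2.71.

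Osm, a cytokine made by neutrophils and macrophages, was at 3.95, 2.94 and 1.24 CPM in hydrogel wounds at day 1, against 2.17, 0.303 and 0.317 CPM in controls. The highest control library, replicate 1, overlapped the hydrogel group. The log2 fold change of 1.52 ± 0.68 did not pass (edgeR adjusted p = 0.172), and without that control library it was 3.09, which passed (0.0129). Neutrophil markers, 8 genes together, summed to 928, 958 and 187 CPM in hydrogel replicates 1 to 3 and to 131, 204 and 207 CPM in controls. Hydrogel replicate 3 lay within the control range. In the same 3 hydrogel libraries Il6st was at 385, 684 and 476 CPM and Stat3 at 204.6, 765 and 376 CPM. At day 1, 3 of 7 tested neutrophil and 2 of 8 fibroblast markers rose and 0 fell, where 4.53% of all tested genes rose. Of 6 tested erythrocyte markers 5 fell and 0 rose, where 3.02% of all tested genes fell. The part of these markers in the day 1 values of Osm, Il6st and Stat3 was not tested. At day 14 Osm was at 0.316, 0.218 and 0.104 CPM in hydrogel wounds, against 0.464, 1.20 and 0.778 CPM in controls, without overlap, and the log2 fold change of -1.93 ± 0.74 did not pass (edgeR adjusted p = 0.0860).

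Lif, a cytokine that acts through Lifr and gp130, was at 1.44, 1.34 and 1.67 CPM in hydrogel wounds at day 7, against 0.892, 0.948 and 1.05 CPM in controls. At day 14 it was at 0.986, 1.03 and 1.04 CPM in hydrogel wounds, against 1.74, 1.75 and 1.19 CPM in controls. The groups did not overlap on either day, higher with hydrogel at day 7 and lower at day 14, but neither log2 fold change passed (0.62 ± 0.54 and -0.61 ± 0.51; edgeR adjusted p = 0.421 and 0.431). Day 1 values were 1.46, 0.736 and 0.621 CPM in hydrogel wounds, against 0.204, 0.0758 and 1.01 CPM in controls, which overlapped. The day 1 log2 fold change did not pass (1.04, edgeR adjusted p = 0.274), and without control replicate 3, its highest control library, it was 2.63 and passed (0.0117).

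Il11, a cytokine known for its role in stromal and fibrotic responses, was highest in control wounds at day 14. Hydrogel wounds stood at 0.434, 0.935 and 0.931 CPM that day, against 2.26, 2.40 and 2.79 CPM in controls. Every hydrogel library lay below every control, and the log2 fold change of -1.68 ± 0.58 missed the threshold (edgeR adjusted p = 0.0587; 0.0199 with DESeq2, and 0.00901 to 0.172 over the alternatives). At day 1 it was at 1.63, 0.421 and 0.155 CPM in hydrogel wounds, against 0.475, 0.682 and 0.507 CPM in controls, and at day 7 at 0.861, 0.392 and 0.868 CPM in hydrogel wounds, against 0.149, 0.474 and 0.349 CPM in controls. The groups overlapped on both days, with log2 fold changes of 0.32 ± 0.66 and 1.09 ± 0.69 that did not pass (edgeR adjusted p = 0.799 and 0.266).

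**Figure D2:**
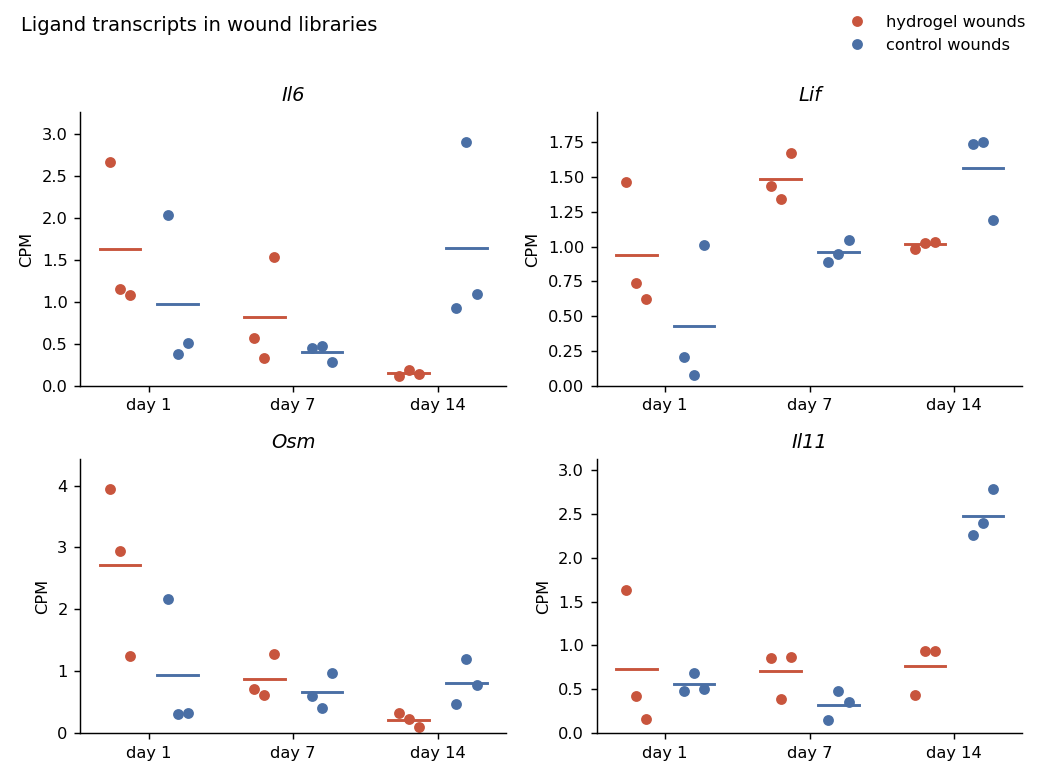
CPM of the 4 ligands in each wound library by day, hydrogel left and control right within each day; points are libraries and lines are group means (n = 3). Axes start at zero and differ between panels; at day 14 the hydrogel points of all 4 genes lie below the control points.

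Receptor transcripts were far more plentiful than the ligands in wounds. Il6st, the shared gp130 chain, had the highest TPM of the 4 receptor chains in every group, at 27.2 to 128 TPM in hydrogel and 30.1 to 65.5 TPM in control wounds. Osmr relative to Il6st stood at 0.113 to 0.208 in hydrogel and 0.279 to 0.494 in control wounds at day 1, as a ratio of TPM, and Lifr at 0.0441 to 0.153 and 0.230 to 0.321. Neither ratio overlapped between the arms at day 1: per unit of gp130 transcript, hydrogel wounds held less of both partner chains. Il6st itself rose that day (log2 fold change 1.27), while Osmr (-0.05) and Lifr (-0.39) did not pass and overlapped between the arms. At day 7 Osmr over Il6st was 0.252 to 0.328 in hydrogel and 0.229 to 0.240 in control wounds, higher with hydrogel and without overlap, while Lifr over Il6st was 0.275 to 0.441 and 0.382 to 0.402, which overlapped. At day 14 Osmr over Il6st was 0.219 to 0.263 in hydrogel and 0.147 to 0.429 in control wounds, which overlapped, and Lifr over Il6st was 0.177 to 0.222 and 0.280 to 0.432, which did not. Il6ra over Il6st overlapped on day 1, at 0.0903 to 0.355 in hydrogel and 0.222 to 0.489 in control wounds. It was higher with hydrogel on day 7, at 0.148 to 0.233 against 0.1235 to 0.130 in controls, and lower on day 14, at 0.117 to 0.154 against 0.179 to 0.190, both without overlap. The order of the arms thus differed by day and by chain. These ratios are a description and were not tested.

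Il6st was at 385, 684 and 476 CPM in hydrogel wounds at day 1, against 218, 212 and 210.4 CPM in controls. All 3 hydrogel libraries lay above the controls, whose SD was 3.71 CPM. That narrow spread held with TMM only: without it the controls stood at 200.1, 142.1 and 171.3 CPM, still below every hydrogel library. Il6st rose, with a log2 fold change of 1.27 ± 0.27 (edgeR adjusted p = 0.0141). It was the only member without overlap that day, where 17.1% of all genes did not overlap, although in CPM without TMM Stat3 did not overlap either (191.7 to 546 in hydrogel and 121 to 189 in control wounds). Il6st lost the call in a fit of the day 1 groups alone, which called 0 of all genes, and with the day 7 libraries summed (adjusted p 0.000282 to 0.355 over the alternatives).

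At day 7 Il6st was at 179, 172.5 and 192 CPM in hydrogel wounds, against 239.9, 240.2 and 241.5 CPM in controls. The 4 members without overlap at day 7 were Lif, Il6st, Lifr and Stat3, where 70.2% of all genes did not overlap. Markers differed widely that day: all 8 macrophage markers fell, with sums of 317.8 to 371 CPM in hydrogel and 2431 to 2445 CPM in control wounds, as did all 8 fibroblast markers. Of 8 markers each, 7 adipocyte markers (sums of 1016 to 1209 and 23510 to 24210 CPM) and 7 endothelial markers (337.5 to 353 and 1281 to 1299 CPM) fell, and all 6 tested erythrocyte markers fell. In the other direction, 6 of 8 keratinocyte markers rose, with sums of 7864 to 8000 CPM in hydrogel and 894 to 897 CPM in control wounds, and 2 of 8 skeletal muscle markers rose (90950 to 107000 and 30320 to 30640 CPM). Their part in the day 7 values was not tested. Fitted with all wound libraries, the Il6st log2 fold change of -0.41 ± 0.27 did not pass (edgeR adjusted p = 0.280); fitted with the day 7 groups alone it did, at -0.41 (adjusted p = 4.05e-06, and 4.05e-06 to 0.882 over the alternatives). At day 14 Il6st was at 102, 91.5 and 87.0 CPM in hydrogel wounds, against 276, 205 and 114 CPM in controls, and it fell by 1.09 ± 0.27 on the log2 scale (edgeR adjusted p = 0.0146). That call was lost under 5 of 15 alternatives, among them without control replicate 1, where the value was -0.77, and without hydrogel replicate 2 or 3.

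Lifr, the receptor of Lif, was at 22.4, 17.2 and 15.2 CPM in hydrogel wounds at day 14, against 78.9, 56.8 and 48.7 CPM in controls. The lowest control library lay far above the highest hydrogel library, and Lifr fell by 1.75 ± 0.26 on the log2 scale (edgeR adjusted p = 0.00135), an estimated 3.36-fold. It passed under all 15 alternatives. At day 7 it was at 59.2, 75.3 and 52.2 CPM in hydrogel wounds, against 91.8, 95.6 and 91.2 CPM in controls, without overlap, and its log2 fold change of -0.58 ± 0.25 did not pass in the fit of all wounds (edgeR adjusted p = 0.108) but did in the day 7 groups alone (0.00125, and 1.45e-05 to 0.819 over the alternatives). At day 1 the groups overlapped, at 58.1, 29.8 and 43.3 CPM in hydrogel wounds, against 56.9, 48.3 and 66.8 CPM in controls.

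Osmr, the signalling chain for oncostatin M, was nearly the same in all hydrogel libraries at day 14, at 24.8, 25.5 and 25.4 CPM, against 45.2, 62.3 and 54.4 CPM in controls. It fell by 1.10 ± 0.21 on the log2 scale (edgeR adjusted p = 0.00391), under all 15 alternatives. At day 1 it was at 89.0, 85.7 and 83.2 CPM in hydrogel wounds, against 119.5, 65.9 and 81.3 CPM in controls, and at day 7 at 60.3, 48.4 and 70.0 CPM in hydrogel wounds, against 61.2, 64.1 and 61.7 CPM in controls. The groups overlapped on both days, with log2 fold changes of -0.05 ± 0.20 (95% interval -0.48 to 0.39) and -0.07 ± 0.21 (-0.50 to 0.37); the day 1 mean was lower with hydrogel in CPM and higher in TPM.

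Il6ra, which binds IL-6 and is found on leukocytes and some other cells, varied most at day 1, at 27.6, 192 and 64.7 CPM in hydrogel wounds, against 38.2, 82.4 and 79.3 CPM in controls. Hydrogel replicate 2 alone lay above the controls; the log2 fold change of 0.51 ± 0.51 did not pass and became -0.52 without that library. At day 7 it was at 26.0, 31.9 and 22.5 CPM in hydrogel wounds, against 23.5, 24.8 and 24.8 CPM in controls, and the groups overlapped. At day 14 Il6ra was at 12.5, 9.82 and 8.07 CPM in hydrogel wounds, against 41.2, 29.1 and 17.2 CPM in controls. The groups did not overlap, and the log2 fold change of -1.53 ± 0.52 missed the threshold (edgeR adjusted p = 0.0571; 0.0186 with DESeq2, and 0.00240 to 0.219 over the alternatives).

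Stat3, the transcription factor that receptors of the family activate, was at 204.6, 765 and 376 CPM in hydrogel wounds at day 1, against 205, 181 and 229 CPM in controls. Hydrogel replicate 1 lay within the control range and the other 2 above it. The log2 fold change of 1.13 ± 0.34 missed the threshold (edgeR adjusted p = 0.0554); it was 0.51 without hydrogel replicate 2 and 1.48 without hydrogel replicate 1, where it passed (adjusted p 0.00294 to 0.473 over the alternatives). At day 7 it was at 162, 138 and 197 CPM in hydrogel wounds, against 101.5, 113 and 106 CPM in controls, without overlap, and its log2 fold change of 0.63 ± 0.34 passed in the day 7 groups alone (0.00189) but not in the fit of all wounds (edgeR adjusted p = 0.192, and 7.43e-05 to 0.863 over the alternatives).

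At day 14 all 9 members had lower CPM in every hydrogel library than in any control, where 43.7% of all genes did not overlap. For Stat3 this rested on the scale: it was at 98.2, 84.0 and 76.0 CPM in hydrogel wounds, against 129, 160 and 106 CPM in controls, but at 27.4 to 33.7 TPM in hydrogel wounds, against 31.4 to 58.7 TPM in controls, which overlapped. Its log2 fold change of -0.61 ± 0.34 did not pass (edgeR adjusted p = 0.227). Several cell type markers also differed that day, not all in the direction of the family. All 8 macrophage markers fell, with sums of 75.4 to 109 CPM in hydrogel and 516 to 4106 CPM in control wounds, as did all 8 fibroblast markers, with sums of 2040 to 2630 and 10660 to 46090 CPM. Of 7 neutrophil markers tested, 4 fell and 0 rose, with sums of 33.1 to 106 and 53.3 to 327 CPM, and Ly6g and Retnlg were at 0 in every hydrogel library. Also 3 of 8 endothelial and 3 of 6 erythrocyte markers fell. T cell marker sums were higher, at 16.4 to 20.5 CPM in hydrogel and 10.9 to 13.0 CPM in control wounds, with 1 of 8 markers up and 1 down. Of 8 adipocyte markers 1 rose and 0 fell, and 0 of 8 keratinocyte and 0 of 8 muscle markers passed. Their part in the fall of the family was not tested.

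**Figure D3:**
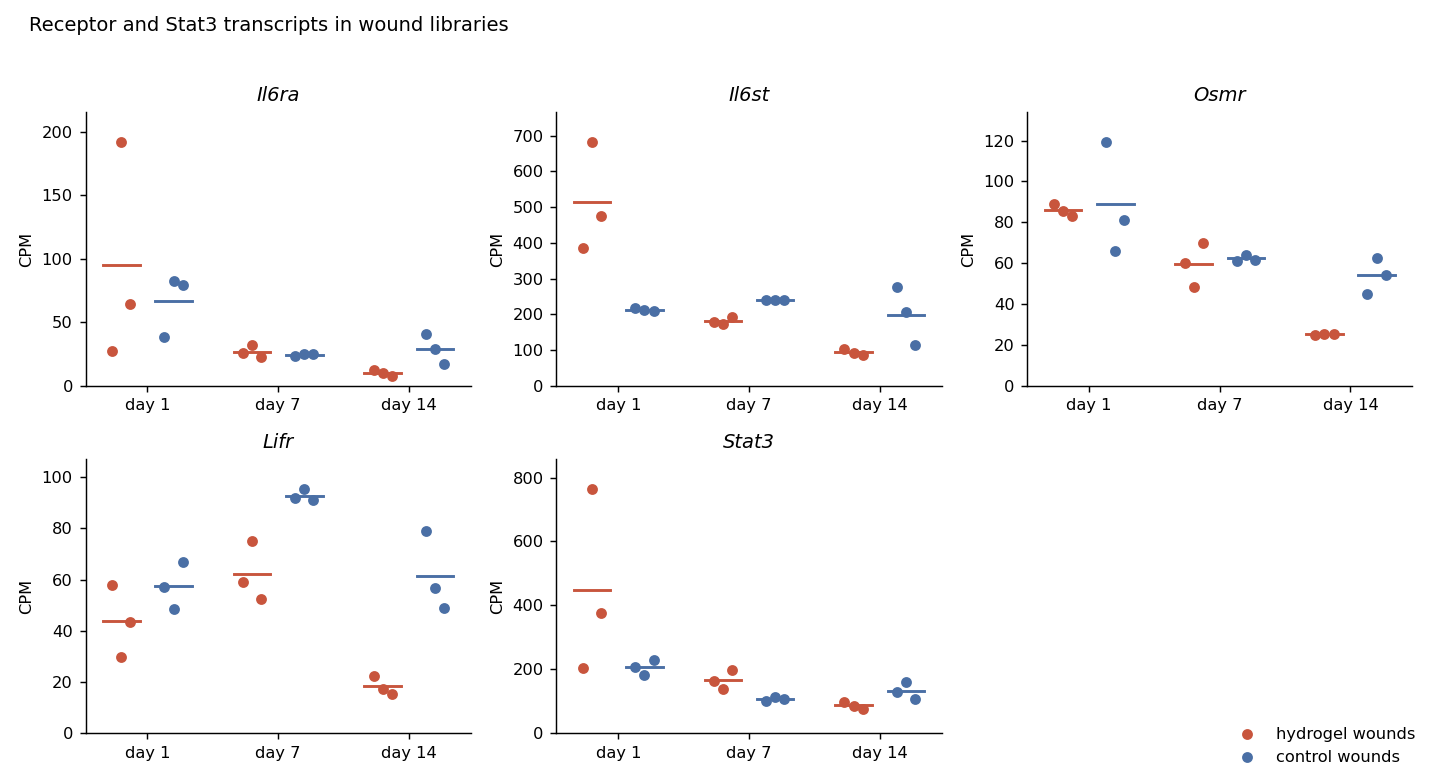
CPM of the 4 receptor chains and Stat3 in each wound library by day, hydrogel left and control right within each day; points are libraries and lines are group means (n = 3). Axes start at zero and differ between panels; Il6st hydrogel points lie above the controls at day 1 and below them at days 7 and 14.

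The hydrogel difference itself changed across the 3 days for 5 of 9 members (edgeR test of 2 contrasts together), where 15.8% of all genes passed that test. These were Il6st (adjusted p = 0.00349), Il6 (0.0147), Lifr (0.0300), Osmr (0.0301) and Stat3 (0.0471). For Il6st the log2 fold change was 1.27 on day 1, -0.41 on day 7 and -1.09 on day 14, and for Stat3 it was 1.13, 0.63 and -0.61. For Lif the test of the change across days gave an adjusted p of 0.241 and did not pass.

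Within the hydrogel arm, 7 of 9 members were lower at day 14 than at day 1, where 47.8% of all genes passed, 21.8% higher and 26.1% lower. The 7 also did not overlap between the days, where 59.3% of all genes did not overlap, although for Lifr this held with TMM and not in CPM without it. All but Lif and Il11 fell, and each of the 7 passed under all 15 alternatives with edgeR, DESeq2 or limma-voom. The log2 fold changes of day 14 over day 1 were -3.63 ± 0.75 for Osm, -3.37 ± 0.75 for Il6, -3.23 ± 0.55 for Il6ra, -2.46 ± 0.28 for Il6st, -2.38 ± 0.36 for Stat3, -1.77 ± 0.21 for Osmr and -1.26 ± 0.25 for Lifr (edgeR adjusted p 3.86e-05 to 0.00244). Lif and Il11 stood at 0.15 ± 0.53 and 0.16 ± 0.61 and did not pass. Without hydrogel day 1 replicate 2, the values of Il6ra and Stat3 were -2.19 and -1.76 and still passed. All 7 tested neutrophil markers and all 8 macrophage, 8 endothelial and 8 skeletal muscle markers were also lower at day 14 than at day 1 in this arm. In the other direction, 5 of 8 T cell markers were higher, with sums of 16.4 to 20.5 CPM at day 14 and 2.69 to 5.26 CPM at day 1, while 3 fibroblast markers rose and 2 fell. Their part was not tested. At day 7 against day 1, 3 of 9 fell (Il6ra, Il6st and Stat3), where 18.3% of all genes passed, 7.76% higher and 10.5% lower. The 3 without overlap were Il6st, Osmr and Stat3, where 40.3% of all genes did not overlap: Il6ra fell but its days overlapped, and Osmr did not pass (edgeR adjusted p = 0.0824). The separation of Osmr and of Stat3 held with TMM and not in CPM without it or in TPM. Without hydrogel day 1 replicate 2, neither Il6ra (-0.79, adjusted p = 0.232) nor Stat3 (-0.81, 0.0764) passed, and each also lost its call without some day 7 libraries: Il6ra without any of the 3, Stat3 without replicate 1 or 2.

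In the control arm, at day 14 against day 1, Lif and Il11 rose and Osmr fell, 3 of 9 members, where 32.4% of all genes passed, 16.7% higher and 15.7% lower. These 3 and Stat3, which did not pass, were without overlap, where 29.6% of all genes did not overlap. For Osmr and Stat3 this held with TMM and not in CPM without it or in TPM. Mean TPM of Osmr was 13.47 at day 14 and 13.96 at day 1, and that of Stat3 was 41.55 and 40.5. Il11 was at 2.48 ± 0.28 CPM at day 14 and 0.555 ± 0.11 CPM at day 1 (SD, n = 3 each), with a log2 fold change of 2.16 ± 0.62 (edgeR adjusted p = 0.0160), and Lif at 1.56 ± 0.32 and 0.431 ± 0.51 CPM, with 1.80 ± 0.57 (0.0244). Lif had a value of 3.40 without control day 1 replicate 3, and its call was lost without day 1 replicate 1 or 2 or day 14 replicate 2. Osmr had a log2 fold change of -0.72 ± 0.21 (edgeR adjusted p = 0.0156), and -0.45 without control day 1 replicate 1, which did not pass. At day 7 against day 1, Lifr rose and Il6ra and Stat3 fell, 3 of 9, where 31.6% of all genes passed, 15% higher and 16.6% lower. These 3 and Il11, Il6st and Osmr, which did not pass, were without overlap, where 49.9% of all genes did not overlap. For Stat3, Osmr and Il11 this held with TMM and not in CPM without it or in TPM. The calls of Lifr, Il6ra and Stat3 had adjusted p of 0.0433 to 0.0473 (edgeR), and each was lost under 7 to 10 of 15 alternatives. Cell type markers moved in this arm as well. Fibroblast markers rose, 7 of 8 at day 14 and 8 of 8 at day 7, with sums of 10660 to 46090 CPM at day 14 and 590.2 to 1385 CPM at day 1, and macrophage markers rose, 5 and 6 of 8. At day 14, 7 of 8 adipocyte, 5 of 8 endothelial, 5 of 6 erythrocyte and 3 of 8 muscle markers fell. At day 7, 5 of 8 muscle and 4 of 8 keratinocyte markers fell, while 4 of 8 T cell markers rose and 1 fell. Their part was not tested. The comparisons of days share the day 1 libraries of their arm, and those of hydrogel with control share libraries with them.

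In RAW264.7 cells 3 of the ligands were plentiful and 2 of the receptor chains were nearly absent. Lif had the highest TPM of all 9 members in both groups, at 243 to 254 TPM in hydrogel and 610.3 to 633 TPM in control cells, followed by Osm at 188 to 236 and 159.8 to 168 TPM. In control cells Osm and Il6 did not differ beyond their spread, with Il6 at 159 to 163 TPM, while in hydrogel cells Il6 lay far lower, at 19.5 to 23.1 TPM. Il6 made up 4.32% to 4.52% of the ligand TPM in hydrogel and 16.6% to 17.3% in control cells, and Osm 41.8% to 45.9% and 17.0% to 17.7%. Osmr was at 0 read pairs in all hydrogel cells and 1 in all control cells together, and Lifr at 1 and 3, so neither could be tested. A count of 0 over the hydrogel cells allows up to 0.0461 CPM, for counting error only.

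Il6 was at 18.9, 21.0 and 21.5 CPM in hydrogel cells, against 137, 133 and 135.5 CPM in control cells. The groups lay far apart, and Il6 fell by 2.72 ± 0.07 on the log2 scale, 6.58-fold (edgeR adjusted p = 3.62e-09). Lif was at 422, 426 and 422.4 CPM in hydrogel cells, against 919, 928 and 958 CPM in control cells, and fell by 1.14 ± 0.06 (edgeR adjusted p = 8.14e-08). Osm rose instead, at 171, 192 and 205 CPM in hydrogel cells, against 131, 125.5 and 133 CPM in control cells, a log2 fold change of 0.55 ± 0.07 (edgeR adjusted p = 5.66e-05). Osm was the only ligand higher with hydrogel in these cells. Il11 was scarce, at 0.560, 1.10 and 1.30 CPM in hydrogel cells, against 1.88, 1.59 and 1.64 CPM in control cells, and fell by 0.74 ± 0.25 (edgeR adjusted p = 0.0229), a call lost under 3 of 12 alternatives: without hydrogel replicate 1 or 2, or without control replicate 1.

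The receptor chains moved in opposite directions in cells. Il6ra was at 32.5, 31.2 and 32.3 CPM in hydrogel cells, against 16.4, 16.8 and 16.7 CPM in control cells, and rose by 0.94 ± 0.07 on the log2 scale (edgeR adjusted p = 6.96e-07). Il6st was at 54.8, 54.7 and 63.2 CPM in hydrogel cells, against 119, 119.9 and 121 CPM in control cells, and fell by 1.06 ± 0.07 (edgeR adjusted p = 4.26e-07). As a ratio of TPM, Il6ra over Il6st was 0.704 ± 0.054 in hydrogel and 0.175 ± 0.0018 in control cells (SD, n = 3 each). Stat3 was at 137, 148 and 161 CPM in hydrogel cells, against 199.9, 202 and 205 CPM in control cells, and fell by 0.44 ± 0.07 (edgeR adjusted p = 0.000166). All 7 members had groups without overlap, where 75.9% of all genes did not overlap, so most genes of these cells were separated in the same way. Macrophage markers were unequal as well: 4 of 7 tested rose and 2 fell, and their part was not tested.

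**Figure D4:**
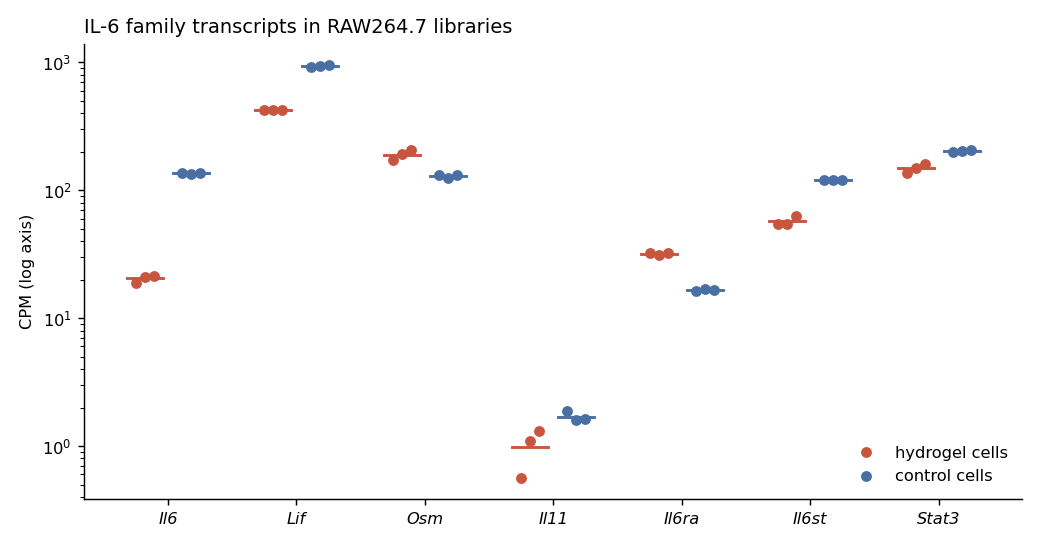
CPM on a log axis of the 7 tested members in each RAW264.7 library, hydrogel left and control right for each gene; points are libraries and lines are group means (n = 3). Osm and Il6ra points lie higher with hydrogel, and those of Il6, Lif, Il11, Il6st and Stat3 lie lower.

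Other genes of the pathway were read from lists chosen with earlier results of these data known, so their counts are a description. Among 8 other ligands and subunits, 4 could be tested in wounds. Ebi3, a subunit of IL-27 and IL-35, fell at day 7 (0.280 CPM in hydrogel and 2.10 CPM in control wounds; log2 fold change -2.89 ± 0.59, edgeR adjusted p = 0.00498) and at day 14 (-1.89 ± 0.55, 0.0299). It was 1 of 4 that fell at day 7, and 2 of 4 fell at day 14. Over all tested genes 9.86% rose and 11.7% fell at day 7, and 5.83% and 10.3% at day 14. In cells Il27 and Ctf2 fell, 2 of 4 tested, where 37.8% of all tested genes fell and 34.7% rose. Il27, the other IL-27 subunit, was at 57.5 CPM in hydrogel and 129.7 CPM in control cells, a log2 fold change of -1.18 ± 0.12. Of 4 other receptors, Il31ra, which pairs with Osmr for the itch cytokine IL-31, rose at day 7 (1.896 ± 0.39, 0.00462) and fell at day 14 (-1.30 ± 0.38, 0.0307). Il11ra1, the Il11 receptor chain, did not pass on any day or in cells, with log2 fold changes between -0.12 ± 0.23 on day 7 and 0.19 ± 0.12 in cells. Both shedding proteases that can release Il6ra from the surface, Adam10 and Adam17, fell in cells (-0.66 ± 0.07 and -0.62 ± 0.06), as did 37.8% of all tested genes. Neither passed in hydrogel against control wounds.

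Of 7 JAK kinases, other STATs and the phosphatase Ptpn11, 6 fell in cells and 0 rose, where 37.8% of all tested genes fell and 34.7% rose. Jak2, one of the kinases bound by gp130, was at 26.8 CPM in hydrogel and 110.4 CPM in control cells, a log2 fold change of -2.05 ± 0.07 (edgeR adjusted p = 1.49e-08), and Jak1 had -0.97 ± 0.06. The list's median was -0.65, against -0.04 over all genes tested. In wounds Tyk2 and Stat5b rose at day 1 (0.99 ± 0.15 and 1.52 ± 0.39), Tyk2 fell at day 7 (-0.54 ± 0.14) and Jak2 fell at day 14 (-0.64 ± 0.18). Inhibitors of the pathway moved by day: Cish fell at day 1 (-2.30 ± 0.34), Cish, Socs3 and Ptpn2 rose at day 7 (2.66 ± 0.35, 1.20 ± 0.40 and 0.72 ± 0.24), and Socs3 and Pias3 fell at day 14 (-1.21 ± 0.40 and -0.66 ± 0.19). These were 1, 3 and 2 of 6 listed inhibitors. In wounds 4.53% of all tested genes rose and 3.02% fell at day 1, 9.86% and 11.7% at day 7, and 5.83% and 10.3% at day 14. Socs3 at day 14 lay at the threshold (edgeR adjusted p = 0.0499), at 23.85 CPM in hydrogel and 55.3 CPM in control wounds. In cells Socs3 was at 394 CPM in hydrogel and 458 CPM in control cells and did not pass (-0.22 ± 0.11, 0.108), while Ptpn1 and Pias3 rose and Cish and Ptpn2 fell.

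Of 24 genes listed as STAT3 targets, 3 rose and 3 fell at day 1, 3 rose and 8 fell at day 7, and 1 rose and 7 fell at day 14. Over all genes tested, 4.53% rose and 3.02% fell on day 1, 9.86% and 11.7% on day 7, and 5.83% and 10.3% on day 14. The list's medians were 0.32, -0.05 and -0.50, against 0.04, 0.01 and 0.03 over all genes tested. Saa3, an acute-phase serum amyloid, rose at day 1, at 1110 CPM in hydrogel and 33.3 CPM in control wounds (log2 fold change 5.06 ± 1.19, edgeR adjusted p = 0.0224), and fell at day 7 (-4.52 ± 1.16, 0.01415, a value added after it was seen) and at day 14 (-6.86 ± 1.31, 0.00406). Also lower at day 14 were Timp1, an inhibitor of matrix proteases (-3.66 ± 0.53), Bcl3, a regulator of NF-kB (-1.63 ± 0.29), and Il4ra, the IL-4 receptor chain (-2.46 ± 0.45). Many of these genes have other inducers, and STAT3 phosphorylation was not measured.

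In cells 18 of the 24 listed targets could be tested, and 7 rose and 7 fell, where 34.7% of all genes rose and 37.8% fell. These shares lie near those of all genes, and the list's median log2 fold change was 0.04. Myc and Birc5, both tied to cell growth and division, rose (2.01 ± 0.07 and 1.91 ± 0.09), while Lcn2, an iron-trapping acute-phase protein, and Hif1a, the hypoxia factor, fell (-1.54 ± 0.06 and -1.04 ± 0.06; edgeR adjusted p 1.86e-08 to 1.51e-07).

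**Figure D5:**
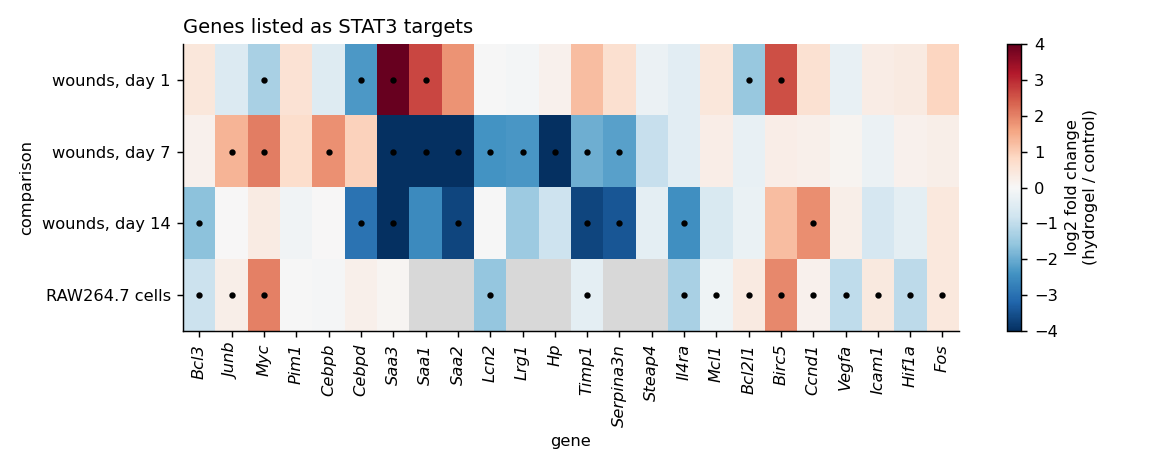
Log2 fold change of hydrogel over control for 24 genes listed as STAT3 targets (columns) at wound days 1, 7 and 14 and in RAW264.7 cells (rows); dots mark genes that passed at an adjusted p below 0.05, grey cells were not tested, and colours end at 4 in either direction. Saa3 is among the deepest red at day 1 and the deepest blue at days 7 and 14.

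Likeness of pattern over the 6 wound groups was measured as the root mean square difference of centred group means of log2 CPM, searched in 12604 genes with at least 5 CPM in their highest group. The nearest genes to Il6 were Crispld2 (0.344), B4galt5 (0.378) and Cep85l (0.378), and to Il11 they were Ptgs2 (0.350), Col7a1 (0.379) and Duox1 (0.428). Osm lay nearest to Zfp651 (0.139), Eda2r (0.167) and Arhgap20 (0.186), and Lif to Fam102a (0.199), Rgma (0.219) and Mblac2 (0.253). Among the members, Osm and Il6st had the most alike patterns (0.314), and Lif and Il11 lay nearest to each other (0.791).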

How the data were processed

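The authors deposited raw, unscaled counts of read pairs per gene symbol for 18 wound and 6 RAW264.7 libraries. The submitters' processing notes list Trim Galore 0.6.10 and FastQC 0.11.9 for the reads, HISAT2 2.2.1 with mm10 for alignment, and SAMtools 1.9 and featureCounts 2.0.6 after it. Exon pairs were counted by gene name, without strand, per the file headers, so reads of overlapping antisense genes cannot be told apart. Mitochondrial symbols (32) stood at 0 in every library.

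Grouping followed the labels. The tests ran in R 4.3.3 with edgeR 4.0.16: low genes were removed by filterByExpr (a count of 10, a total of 15), libraries were scaled by TMM, and the robust quasi-likelihood F test was applied to the 18 wounds together, as 6 groups with 12 residual degrees of freedom, and to the 6 cell libraries separately, with 4. Benjamini-Hochberg adjustment covered every gene tested, 17592 in wounds and 12972 in cells, and 0.05 was the threshold. CPM include TMM scaling; TPM were computed from the counts and the exon lengths in the files. Pattern likeness used a prior count of 2, and the bound for a count of 0 used 3 counts over the group. On simulated counts, percentages of changed genes recovered at 4-fold were 86% (day 1), 87% (day 7), 86% (day 14) and 100% (cells). At 2-fold they were 10% (day 1), 8% (day 7), 8% (day 14) and 100% (cells). Changes were planted only in genes with a mean above 5 CPM, which leaves out the wound ligands and Il11 in cells. The simulated spread of a gene was the same in every group, unlike that of the data.

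Results were recomputed with RLE scaling, without a filter, with a stricter filter (1 CPM in 3 libraries), with DESeq2 1.42.0, with voom and quality weights in limma 3.58.1, with only the compared groups, with the replicate number as a block, with each group's day 7 libraries added together, without replicate 1 of control days 1 and 14, and without each library in turn. Members, lists and alternatives were chosen with earlier results of these data known. All 9 members are named. Of each pathway list up to 4 genes past the test by adjusted p are named per hydrogel comparison, with any tested gene of lists of 8 or fewer. Not every gene this rule names is reported here. For each ligand the 3 genes nearest in pattern are named, predicted symbols left out. Promoters are from RefSeq on GRCm38.p6, whose start sites can differ from those of the annotation counted.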

Additional observations from a re-analysis of the deposited data

Results flagged for a closer look

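For 5 members the difference between hydrogel and control wounds changed across days 1, 7 and 14 by the edgeR test of that change. Il6st had an adjusted p of 0.00349, with log2 fold changes of 1.27 at day 1, -0.41 at day 7 and -1.09 at day 14. Il6 had an adjusted p of 0.0147, with 0.71, 1.01 and -3.42 at the same days. Lifr had 0.0300, with -0.39, -0.58 and -1.75, and Osmr had 0.0301, with -0.05, -0.07 and -1.10. Stat3 had 0.0471, with 1.13, 0.63 and -0.61. Under 26 alternatives the test passed 25 times for Il6st and for Il6, 18 times for Lifr, 15 for Osmr and 9 for Stat3. With the day 7 libraries summed it passed for 0 of the 5 (adjusted p = 0.1003 for Il6st and 0.140 for Il6).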

How the results depend on the processing

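Counts of members past the test moved with the fit, and so did counts of all genes past it, given in the same order. The fits also differed in how many genes they tested. At day 1 the count of 1 was 2 with DESeq2, with limma-voom and with 2 control libraries left out, 0 in the compared groups alone and with day 7 libraries summed, and 1 to 2 with a library left out. Of all genes 1329 passed as reported, and 2626, 4280, 3564, 0, 14 and 425 to 3012 in these fits. At day 7 the count of 0 was 5 with limma-voom and 3 in the compared groups alone, where all genes past went from 3792 to 12321 and 11122. At day 14 the count of 4 was 7 with DESeq2, 8 with limma-voom, 3 in the compared groups alone and with day 7 libraries summed, and 3 to 5 with a library left out. All genes past went from 2836 to 4147, 5828, 433, 549 and 806 to 4322. For control day 7 against day 1 the count of 3 was 0 without a filter and with day 7 libraries summed, and 0 to 1 with a library left out. All genes past went from 5553 to 4210, 97 and 3304 to 7953. For control day 14 against day 1 the count of 3 was 0 in the compared groups alone and with day 7 libraries summed. All genes past went from 5699 to 77 and 2900. For hydrogel day 7 against day 1 the count of 3 was 6 with limma-voom, 1 in the compared groups alone, 0 with day 7 libraries summed, 5 with 2 control libraries left out, and 1 to 4 with a library left out. All genes past went from 3221 to 9206, 2676, 1, 6758 and 999 to 5169. For the change across days the count of 5 was 2 without a filter, 0 with day 7 libraries summed and 2 to 7 with a library left out. All genes past went from 2785 to 1897, 27 and 1619 to 5295. For hydrogel day 14 against day 1 the count of 7 was 8 with limma-voom, and 7 to 8 with a library left out. All genes past went from 8415 to 12441 and 6296 to 8890. In cells the count of 7 was 6 to 7 with a library left out, where all genes past went from 9409 to 8615 to 9871.

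Signs turned in 12 of 79 single results, 0 of which had passed. The 79 include the 9 tests of the change across days, which carry no sign and could not turn. With limma-voom, day 1 Il11 was -1.38, Il6ra -0.0784 and Osmr 0.14, Osm in controls was 0.77 at day 7 and 1.48 at day 14 against day 1, and Lifr in controls -0.0604 at day 14. With 2 control libraries left out, day 1 Osmr was 0.23, Osm in controls 1.08 and 1.66, and Lifr in controls -0.12. Il11 at hydrogel day 7 against day 1 was -0.0166 with day 7 libraries summed. With a library left out, day 1 values were -0.92 to 0.84 for Il11, -0.52 to 0.95 for Il6ra and -0.22 to 0.23 for Osmr, and day 7 values -0.0024 to 0.25 for Il6ra and -0.20 to 0.0659 for Osmr. Against day 1, in hydrogel wounds Il11 was -0.50 to 1.26 at day 7 and -0.36 to 1.40 at day 14, and Lif -0.0807 to 0.57 at day 14, and in controls Osm was -0.92 to 1.07 at day 7 and -0.60 to 1.39 at day 14, Il6st -0.42 to 0.17 and Lifr -0.12 to 0.24 at day 14. The cause of these moves was not tested.

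Whether replicate numbers pair the samples was not settled. Correlations of deviations between same-numbered libraries of the 2 arms ran from -0.0185 to 0.374. Of 12, 4 were over 0.1, all of them in wounds at day 1 or day 14. Of 9 hydrogel wound libraries, 7 correlated best with the control of their own number. With the number as a replicate block, Osm in controls at day 14 against day 1 was 0.0657, the members past were 1, 0 and 4 at days 1, 7 and 14 and 7 in cells, and 4 for the change across days. All genes past at day 1 (1329) ranged from 0 to 4280 over the alternatives, at day 7 (3792) from 0 to 12321, at day 14 (2836) from 433 to 5828 and in cells (9409) from 8615 to 10801. The groups' mean log2 TMM factors, whose difference is the shift in mean log2 CPM if TMM is left out, differed by -0.10 at day 7, 0.15 at day 14, and, for day 7 and day 14 against day 1, by 0.35 and 0.72 in hydrogel wounds and 0.43 and 0.55 in control wounds; ratios of group means shift unequally between genes. Ligand counts of 1 to 68 limit their wound values, and 2-fold changes of genes above 5 CPM were rarely found in simulated wounds.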
